A study of Mus musculus with 18 samples.

Results

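Hair cells made in culture were set against hair cells taken directly from the cochlea. The comparison used 4 of the 18 RNA-seq libraries of a mouse inner ear study: 2 libraries titled sorted LCP D10 and 2 titled Atoh1 P2, called the culture-made and the native hair cells here. The sorted LCP D10 libraries came from primary cochlear organoids after 10 days of differentiation and are marked as sorted. The labels do not spell out LCP, taken here to mean progenitors of the cochlea that express Lgr5. The Atoh1 libraries came from cochlear sensory epithelium sorted at postnatal day 2. The 2 unsorted LCP D10 organoid libraries, and the Lgr5 and Sox2 sorts of the same epithelium at postnatal day 2 with 2 libraries each, are given as values beside the comparison.

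The labels give no genotype, reporter or strain for any of these libraries, and the gate that sorted the organoid cells was not given in the sources used here. One treatment text, on tamoxifen, Sox2-CreER and a floxed exon 3 of beta-catenin, is attached to all samples and matches none of these titles. The protocols describe epithelium freed of mesenchyme and neurons before extraction, and state that each sample came from 2 ears of 1 pup. They tie no organoid library to an animal, so the spread between the culture-made libraries may be technical. Day 10 in culture and postnatal day 2 are different clocks, and age, culture and sort differ together between the groups.

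Hair cells are the mechanoreceptors of the inner ear. Deflection of their actin-based bundle opens transduction channels at the tips of stereocilia, calcium enters, and ribbon synapses release glutamate onto afferent neurons. Around birth cochlear hair cells express the transcription factors that specify them, and in the following weeks they add the motor protein prestin, the potassium currents of the adult cell and, in outer hair cells, large amounts of calcium buffers. Supporting cells surround them, are set apart from them by Notch signalling, and secrete the tectorial membrane.

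Protein-coding transcripts were compared as log2 of TPM plus 1, where TPM is the length-scaled transcript abundance per library, over the 12506 genes that reached 1 TPM in 2 or more of the 4 libraries. A log2 difference is sorted LCP D10 minus Atoh1 sort, given with its standard error (SE), and on this scale the change of a weakly expressed gene is understated. Each adjusted p is a Benjamini-Hochberg value from limma over all 12506 genes, and a gene was called at an adjusted p under 0.05. With 2 libraries against 2 an exact permutation test of a single gene cannot go below p = 0.33, so the calls rest on the spread shared across genes and across the 18 libraries of the fit. A gene listed at 0 in many libraries can pass with a small SE. A gene under 1 TPM in both libraries of one group was tested only because both libraries of the other group reached 1 TPM. The filter thus fixed the direction of such a gene in advance, and its direction is a description only.

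In all, 2234 genes differed (17.9%), of which 688 were higher in sorted LCP D10 (5.5%) and 1546 were lower (12.4%). The counts of each gene list below are to be read beside these shares. The median difference over all genes was -0.28. Making the library medians equal adds 0.31 to each log2 difference, brings that median to 0.03 and turns the split into 1039 higher and 912 lower. The libraries of the 2 groups did not overlap for 67.9% of genes (21.7% higher and 46.2% lower in sorted LCP D10), so a lack of overlap by itself set few genes apart. With any 1 of the 4 libraries left out, one group is a single library assumed to vary like the others, and between 905 and 1255 genes were called. Genes whose call was lost with particular libraries left out are marked below; an unmarked call was kept in all 4 of these fits.

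**Figure D1:**
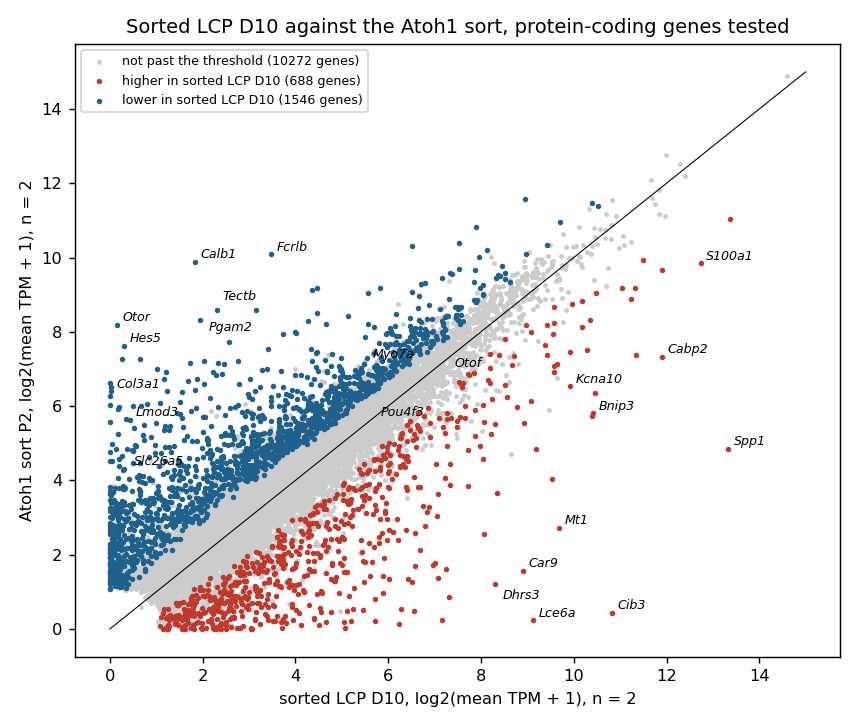
Mean TPM of each gene on a log2(TPM + 1) scale in sorted LCP D10 (x axis) against the Atoh1 sort (y axis), 2 libraries each. The 688 genes higher in sorted LCP D10 are red, the 1546 lower genes blue and the 10272 others gray; Cib3 and Spp1 lie far to the right, and Calb1, Otor and Hes5 far up.

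Between 11752 and 12283 protein-coding genes reached 1 TPM in each of the 4 libraries. Mitochondrially encoded transcripts made up 9.09% and 10.9% of TPM in sorted LCP D10, against 8.93% and 7.67% in the Atoh1 sort. Sequencing date followed the replicate number, so the difference within a date is the difference between libraries of equal number. RNA extraction dates differed between all 4 libraries, so extraction date and group cannot be told apart. The labels put the extraction of Atoh1 replicate 1 after its sequencing. They do the same for replicate 1 of the Lgr5 sort, the Sox2 sort and unsorted LCP D10. For each of these libraries at least 1 of the dates cannot be right, and what rests on the dates is limited by that. The libraries are bulk samples, in which fewer cells of a type and less RNA per cell cannot be told apart.

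Among genes averaging at least 10 TPM in either group the largest positive difference belonged to Cib3, which encodes a calcium and integrin binding protein that associates with the TMC transduction channels. It lies at chr8:72204335-72212837 on the minus strand of mm10. Cib3 had 2196 and 1411 TPM in sorted LCP D10, against 0.423 and 0.265 TPM in the Atoh1 sort. It was thus among the abundant transcripts of the culture-made cells and near the lower end of detection in the native ones, and it was also under 1 TPM in each Lgr5 and Sox2 sort. The log2 difference was 10.36 (SE 1.14, adjusted p = 6.64e-05). The unsorted LCP D10 organoids had 32.8 and 820.0 TPM, 2 levels far apart. The reference promoter of Cib3 is shown because no named gene differed more, from 250 bases before to 50 bases after the RefSeq start (GRCm38.p6, chr8:72212788-72213087, minus strand); capitals mark the E-box letters CAGCTG or CAGATG, of the kind that proneural factors such as ATOH1 bind, on either strand.
Cib3: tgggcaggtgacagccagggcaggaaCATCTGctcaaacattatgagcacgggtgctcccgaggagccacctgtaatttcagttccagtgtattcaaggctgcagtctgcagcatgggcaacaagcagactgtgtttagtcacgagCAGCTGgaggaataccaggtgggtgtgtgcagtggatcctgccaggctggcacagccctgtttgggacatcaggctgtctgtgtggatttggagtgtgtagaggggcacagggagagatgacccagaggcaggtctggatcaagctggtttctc
The window held 2 such matches. It is set by the RefSeq start alone, and whether the matches lie in regulatory or in transcribed sequence was not tested. The same letters occurred in 10043 of 32851 RefSeq promoters of that length (30.6%), so a match is common and is a description only.

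The regulators that specify hair cells were present in both groups. Pou4f3, needed for hair cell survival, had 50.3 and 56.6 TPM in sorted LCP D10, against 66.1 and 76.8 TPM in the Atoh1 sort (log2 difference -0.41, SE 0.67, adjusted p = 0.713). Gfi1, a zinc-finger factor acting with Pou4f3, had 244 and 158 TPM in sorted LCP D10, against 72.9 and 99.6 TPM in the Atoh1 sort (1.19, SE 0.57, adjusted p = 0.174). The LIM-homeobox gene Lhx3 had 177 and 139.6 TPM in sorted LCP D10, against 138 and 195 TPM in the Atoh1 sort. The Lhx3 levels overlapped, its difference was -0.06, and it became 0.25 with equal library medians. All 3 hair cell markers were thus present in each library of both groups, and neither Pou4f3, Gfi1 nor Lhx3 passed the threshold. The Lgr5 and Sox2 sorts were not free of hair cell transcripts, with 23.5 and 40.0 TPM of Pou4f3 in the Lgr5 sort and 42.4 and 40.3 TPM in the Sox2 sort.

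Several other hair cell transcription factors were lower in the culture-made cells. Atoh1, the proneural gene that starts hair cell differentiation, had 31.5 and 27.5 TPM in sorted LCP D10, against 109 and 162 TPM in the Atoh1 sort. Its difference of -2.13 (SE 0.66, adjusted p = 0.0404) lost its call whichever library was left out and with equal library medians (adjusted p = 0.108). Hes6, a Hes-family gene that rises with Atoh1, had 104 and 114 TPM in sorted LCP D10, against 645 and 626 TPM in the Atoh1 sort (-2.53, SE 0.35, adjusted p = 0.000313). Both Hes6 levels were closely matched within each group. Insm1, a zinc-finger repressor of early neural and sensory precursors, had 0.245 and 0.371 TPM in sorted LCP D10, against 5.17 and 8.63 TPM in the Atoh1 sort. It was below 1 TPM in both culture-made libraries and fell by 2.56 (SE 0.41, adjusted p = 0.000898). Nhlh1, a further proneural-type factor, had 1.18 and 2.11 TPM in sorted LCP D10, against 6.01 and 6.42 TPM in the Atoh1 sort (-1.47, SE 0.26, adjusted p = 0.00212). Barhl1, a homeobox gene needed for long-term hair cell maintenance, had 14.6 and 13.6 TPM in sorted LCP D10, against 77.1 and 74.1 TPM in the Atoh1 sort (-2.34, SE 0.52, adjusted p = 0.00795). The Barhl1 call was lost without sorted LCP D10 replicate 2 or Atoh1 replicate 1.

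Of 14 hair cell transcription factors, 0 were higher in sorted LCP D10 and 6 were lower, with a median difference of -1.13 against -0.28 over all genes. The count of lower members was 3 to 5 with 1 library left out. Of 13 tested early postnatal hair cell genes, which include Atoh1, Hes6, Insm1 and Nhlh1, 0 were higher and 5 lower (median -1.20). Of these 13, 3 or 4 were lower with 1 library left out and 3 with equal library medians.

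Of the transduction genes, Cib3 and Tmc1 were higher in culture and the others did not pass the threshold. Besides Cib3, the pore subunit gene Tmc1 had 86.8 and 46.6 TPM in sorted LCP D10, against 8.25 and 22.8 TPM in the Atoh1 sort. Its difference of 2.12 (SE 0.68, adjusted p = 0.047) lost its call whichever library was left out, and was 3.25 between the first replicates and 1.00 between the second. The related subunit gene Tmc2, which precedes Tmc1 during postnatal development, had 9.26 and 3.46 TPM in sorted LCP D10, against 16.1 and 29.6 TPM in the Atoh1 sort. Tmc2 therefore lay in the opposite order from Tmc1, but its difference of -1.76 (SE 0.60, adjusted p = 0.0578) missed the threshold and passed it with the replicate number as a block (adjusted p = 0.0447). Cib2, the partner of the TMC proteins in cochlear hair cells, had 316 and 302 TPM in sorted LCP D10, against 772 and 1064 TPM in the Atoh1 sort (-1.55, SE 0.59, adjusted p = 0.0859). With the block, Cib2 too was lower (limma adjusted p = 0.0261). Passing with the block here and below is no support from pairing. A block with the numbers paired crosswise called 3085 genes, against 3039. Lhfpl5, which links tip link and channel, had 344 and 255 TPM in sorted LCP D10, against 498 and 594 TPM in the Atoh1 sort (-0.87, SE 0.83, adjusted p = 0.51). Myo7a, the myosin at the upper tip link end, had 67.6 and 49.8 TPM in sorted LCP D10, against 80.1 and 151 TPM in the Atoh1 sort (-0.91, SE 0.59, adjusted p = 0.313). Tmc2, Cib2, Lhfpl5 and Myo7a each had less in both culture-made libraries than in either native one, and none of them was called. The same order held for 46.2% of all genes tested, so it does not set these genes apart.

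Of the 14 transduction genes, 2 were higher and 0 lower (median -0.41), and 1 was higher with any 1 library left out. With the block, 2 were higher and 2, Tmc2 and Cib2, were lower.

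Most hair bundle genes did not pass the threshold. Of those called most were lower in the culture-made cells, as were most called genes of all. Lmod3, a leiomodin that nucleates actin, had 0.691 and 0 TPM in sorted LCP D10, against 20.5 and 76.1 TPM in the Atoh1 sort (-4.97, SE 0.57, adjusted p = 9.31e-05). Myo3a, a myosin of stereocilia tips, had 8.05 and 3.59 TPM in sorted LCP D10, against 58.5 and 71.1 TPM in the Atoh1 sort (-3.35, SE 0.51, adjusted p = 0.000704). Pkhd1l1, a large coat protein of stereocilia, had 0.0212 and 0.068 TPM in sorted LCP D10, against 2.89 and 5.97 TPM in the Atoh1 sort (-2.32, SE 0.25, adjusted p = 5.41e-05). Lmod3 and Pkhd1l1 were under 1 TPM in both culture-made libraries. None of the 3 genes overlapped between groups, as held for 67.9% of all genes. Whrn, the tip scaffold whirlin, had 5.85 and 7.23 TPM in sorted LCP D10, against 29.9 and 54.0 TPM in the Atoh1 sort. It was lower by -2.46 (SE 0.49, adjusted p = 0.0041), a call lost without Atoh1 replicate 2.

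Other abundant bundle components did not pass. Espn, the actin bundler espin, had 986 and 834 TPM in sorted LCP D10, against 334 and 428 TPM in the Atoh1 sort (1.26, SE 0.58, adjusted p = 0.153). Eps8l2, a protein of the stereocilia tips, had 407 and 259.6 TPM in sorted LCP D10, against 423 and 614 TPM in the Atoh1 sort (-0.65, SE 0.48, adjusted p = 0.382). Myo6, the motor of the bundle base, had 177 and 115 TPM in sorted LCP D10, against 327 and 479 TPM in the Atoh1 sort (-1.47, SE 0.50, adjusted p = 0.0592). Of 32 tested bundle genes, 1 was higher, 7 were lower and 24 did not pass (median -0.62). Over all genes, 5.5% were higher and 12.4% lower. With equal library medians, 1 bundle gene was higher and 5 were lower. The 7 became 11 with the block and 4 or 5 with 1 library left out. The 1 higher member was Loxhd1, a stereocilia protein named after its values were seen, with 99.3 and 71.2 TPM in sorted LCP D10, against 17.6 and 26.1 TPM in the Atoh1 sort (1.92, SE 0.53, adjusted p = 0.0224). The Loxhd1 call was lost whichever library was left out.

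Calcium buffering differed gene by gene. Calb1, the cytosolic buffer calbindin, lies at chr4:15881264-15908064 on the plus strand. It had 3.39 and 1.78 TPM in sorted LCP D10, against 556 and 1340.5 TPM in the Atoh1 sort. Both culture-made libraries lay far below both native ones, and the unsorted LCP D10 organoids, at 0.388 and 3.27 TPM, were equally low. Calb1 was the gene with the largest fall among those named, by 7.95 (SE 0.51, adjusted p = 1.84e-06). In the tissue it was also present in the other sorts, with 249 and 440.4 TPM in the Lgr5 sort and 529 and 481 TPM in the Sox2 sort.

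Ocm, the outer hair cell buffer oncomodulin, had 17.0 and 13.2 TPM in sorted LCP D10, against 79.8 and 423 TPM in the Atoh1 sort. The native replicates were themselves far apart, and the difference of -3.53 (SE 0.66, adjusted p = 0.00271) was -2.17 between the first replicates and -4.90 between the second. Atp2b1, a plasma membrane calcium pump, had 27.1 and 14.2 TPM in sorted LCP D10, against 62.2 and 71.5 TPM in the Atoh1 sort (-1.71, SE 0.32, adjusted p = 0.00258). In contrast, Pvalb, the buffer parvalbumin, had 185 and 227 TPM in sorted LCP D10, against 326 and 356 TPM in the Atoh1 sort (-0.73, SE 0.88, adjusted p = 0.61). Calb2, the buffer calretinin, had 391 and 415 TPM in sorted LCP D10, against 314 and 844 TPM in the Atoh1 sort, and the groups overlapped. S100a1, an EF-hand protein that hair cells and supporting cells both express, had 6313 and 7335 TPM in sorted LCP D10, against 1035 and 796 TPM in the Atoh1 sort. It was higher by 2.90 (SE 0.71, adjusted p = 0.0129), a call lost whichever library was left out. Of 9 calcium buffers and pumps, 1 was higher and 3 were lower (median -0.73).

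Membrane channels moved both ways. Slc26a5, the gene for prestin, through which outer hair cells change length, lies at chr5:21810655-21865604 on the minus strand. It had 0.0903 and 0.552 TPM in sorted LCP D10, against 12.5 and 18.02 TPM in the Atoh1 sort (-3.62, SE 0.39, adjusted p = 5.76e-05). Kcnj13, an inwardly rectifying potassium channel, had 47.0 and 45.7 TPM in sorted LCP D10, against 262 and 792 TPM in the Atoh1 sort (-3.27, SE 0.60, adjusted p = 0.00257). Kcnn2, the SK2 channel that couples to efferent input, had 5.78 and 3.98 TPM in sorted LCP D10, against 21.5 and 38.2 TPM in the Atoh1 sort (-2.35, SE 0.40, adjusted p = 0.00153). Prestin transcripts were under 1 TPM in both culture-made libraries, while Kcnj13 and Kcnn2 were present at reduced levels.

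The potassium channel genes Kcna10 and Kcnma1 were higher in culture. Kcna10, a voltage-gated potassium channel of hair cells, had 1163 and 771 TPM in sorted LCP D10, against 67.5 and 116 TPM in the Atoh1 sort. The difference was 3.40 (SE 0.73, adjusted p = 0.00652), a call lost without sorted LCP D10 replicate 1 or Atoh1 replicate 1. Kcnma1, the BK channel of mature inner hair cells, named after its values were seen, had 11.5 and 4.93 TPM in sorted LCP D10, against 0.962 and 0.784 TPM in the Atoh1 sort (2.20, SE 0.38, adjusted p = 0.00169). The subunits of the efferent acetylcholine receptor did not pass: Chrna9 had 161 and 101 TPM in sorted LCP D10, against 312 and 354 TPM in the Atoh1 sort, and its adjusted p was 0.194. Of 15 tested channel and receptor genes, 3 were higher and 4 lower (median -0.83), and 1 to 3 were higher with 1 library left out.

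At the ribbon synapse 2 genes were higher and 2 lower of 12 tested (median 0.17), and 1 was lower with any 1 library left out. Cabp2, a calcium-binding regulator of the presynaptic calcium channel, had 4251 and 3361 TPM in sorted LCP D10, against 172 and 146 TPM in the Atoh1 sort (4.57, SE 0.97, adjusted p = 0.006). Slc17a8, the vesicular glutamate transporter of inner hair cells, had 23.7 and 14.8 TPM in sorted LCP D10, against 2.64 and 1.25 TPM in the Atoh1 sort (2.79, SE 0.46, adjusted p = 0.00114). Rims2, an active zone scaffold, had 2.85 and 2.63 TPM in sorted LCP D10, against 11.1 and 14.6 TPM in the Atoh1 sort (-1.88, SE 0.35, adjusted p = 0.00258). Cabp2 and Slc17a8 were several-fold higher in both culture-made libraries than in either native one, and Rims2 was lower in both. The calcium channel subunit gene Cacnb2 was lower as well (-1.95, SE 0.57, adjusted p = 0.0317), a call lost whichever library was left out. Otof, otoferlin, the calcium sensor of vesicle release, had 192 and 126 TPM in sorted LCP D10, against 81.5 and 164 TPM in the Atoh1 sort, and the groups overlapped (0.42, SE 0.74, adjusted p = 0.735).

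Across 24 genes of later hair cell maturation, 6 were higher in sorted LCP D10, 7 were lower and 11 did not pass (median -0.42). The higher members were Cib3, Cabp2, Slc17a8, Kcnma1, Tmc1 and Loxhd1. Calb1, Lmod3, Slc26a5, Ocm, Kcnn2 and Pkhd1l1 were among the 7 lower members. Cib3 and Kcnma1 were under 1 TPM in both native libraries, and Lmod3, Slc26a5 and Pkhd1l1 in both culture-made ones. The filter fixed the direction of these genes in advance, and they count as a description only. The calls of Tmc1 and Loxhd1 were lost whichever library was left out. Cabp2 and Slc17a8 were higher and Calb1, Ocm and Kcnn2 lower without a direction fixed by the filter. The median of the list stood close to that of all genes.

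**Figure D2:**
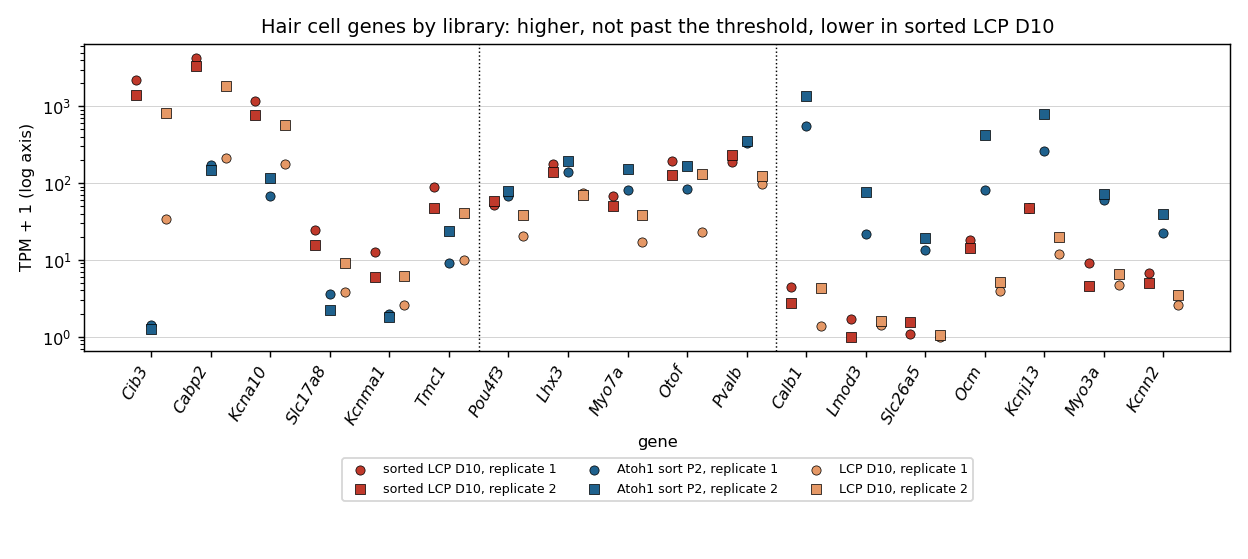
TPM + 1 on a log axis for 18 hair cell genes in sorted LCP D10, the Atoh1 sort and unsorted LCP D10, with replicate 1 as circles and replicate 2 as squares. Dotted lines separate genes higher in sorted LCP D10 (left, Cib3 to Tmc1), genes not past the threshold (middle, Pou4f3 to Pvalb) and genes lower (right, Calb1 to Kcnn2); Calb1 has 3.39 and 1.78 TPM in sorted LCP D10, against 556 and 1340.5 TPM in the Atoh1 sort.

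Among the genes furthest from the native level, several have no assigned place in the hair cell lists. Fcrlb, an Fc receptor-like gene, had 12.1 and 8.28 TPM in sorted LCP D10, against 646 and 1525 TPM in the Atoh1 sort (-6.50, SE 0.49, adjusted p = 3.27e-06). St8sia3, a sialyltransferase, had 0.0198 and 0.0101 TPM in sorted LCP D10, against 66.1 and 116 TPM in the Atoh1 sort (-6.45, SE 0.31, adjusted p = 1.68e-07). Pgam2, the muscle form of a glycolytic mutase, had 2.9 and 2.78 TPM in sorted LCP D10, against 289.6 and 343 TPM in the Atoh1 sort (-6.36, SE 0.42, adjusted p = 1.84e-06). Each of the 3 genes had less in every Lgr5 and Sox2 library, between 24.8 and 400.0 TPM, than in either Atoh1 library, and all were at or under 12.2 TPM in unsorted LCP D10.

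On the culture side, Spp1, the secreted phosphoprotein osteopontin, was the most abundant of the named genes. It lies at chr5:104435118-104441050 on the plus strand. Spp1 had 12732 and 7829 TPM in sorted LCP D10, against 52.8 and 3.0 TPM in the Atoh1 sort (9.41, SE 1.42, adjusted p = 0.000655). The native replicates differed widely, and the difference was 7.89 between the first replicates and 10.93 between the second. Spp1 was at 444 and 5062 TPM in unsorted LCP D10 and reached 97.2 and 88.7 TPM in the Sox2 sort.

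Genes at 10 TPM or more on average in sorted LCP D10 and under 1 TPM in both Atoh1 libraries numbered 42 of 21620 protein-coding genes (0.194%); these levels chose the genes and are a description. After Cib3, the most abundant were Lce6a, Pcdh20, Mgarp, Art1 and Gal. Lce6a, of the late cornified envelope family, had 586 and 530.3 TPM in sorted LCP D10, against 0.134 and 0.223 TPM in the Atoh1 sort. Pcdh20, a protocadherin, had 208 and 76.3 TPM in sorted LCP D10, against 0.0648 and 0.305 TPM in the Atoh1 sort. Gal, the neuropeptide galanin, had 55.00 and 94.4 TPM in sorted LCP D10, against 0.181 and 0 TPM in the Atoh1 sort. The unsorted LCP D10 organoids had at least 1 TPM in both libraries for 32 of the 42 genes and under 1 TPM in both for 0. All 4 Lgr5 and Sox2 libraries were under 1 TPM for 23 of the 42.

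Most tested genes of the oxygen-sensing response were higher in the culture-made cells, and their list had the highest median difference of the 28 lists examined. The lists were chosen with earlier results of these data known, so this rank is a description only. Under low oxygen, hypoxia-inducible factors bind short sites in the promoters of genes for glycolysis, pH control, blood vessel growth and mitochondrial turnover. Car9, a membrane carbonic anhydrase of that programme, had 509 and 448 TPM in sorted LCP D10, against 2.61 and 1.28 TPM in the Atoh1 sort (7.38, SE 1.33, adjusted p = 0.00224). Bnip3, which targets mitochondria for removal, had 1519.9 and 1216 TPM in sorted LCP D10, against 51.3 and 58.7 TPM in the Atoh1 sort (4.61, SE 0.86, adjusted p = 0.00267). Both were high in each culture-made library. Egln3, an oxygen-sensing prolyl hydroxylase, had 15.4 and 17.4 TPM in sorted LCP D10, against 0.11 and 0.0291 TPM in the Atoh1 sort (4.02, SE 0.73, adjusted p = 0.00222). Vegfa, the vascular growth factor, had 113 and 156 TPM in sorted LCP D10, against 11.9 and 10.7 TPM in the Atoh1 sort (3.44, SE 0.65, adjusted p = 0.00307).

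Of 15 genes in the hypoxia and glycolysis list, 11 were higher and 0 lower, with a median of 2.49 against -0.28 over all genes. All 15 differences were positive. The higher count was 8 or 9 with 1 library left out and 13 with the block or with equal library medians. The glucose transporter gene Slc2a1 had 141 and 111 TPM in sorted LCP D10, against 49.3 and 35.9 TPM in the Atoh1 sort (1.55, SE 0.54, adjusted p = 0.0649). Slc2a1 was higher with the block (adjusted p = 0.0126). Pdk1, a kinase that restrains the use of pyruvate in mitochondria, had 134 and 88.3 TPM in sorted LCP D10, against 46.5 and 40.8 TPM in the Atoh1 sort (1.30, SE 0.72, adjusted p = 0.241). The unsorted LCP D10 replicates disagreed for this programme, with Car9 at 6.59 and 605 TPM and Bnip3 at 153 and 1438 TPM.

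The promoters of Car9 and Bnip3 are shown because these 2 genes led the list. Each runs from 250 bases before to 50 bases after the RefSeq start in GRCm38.p6, Car9 at chr4:43506776-43507075 on the plus strand and Bnip3 at chr7:138909457-138909756 on the minus strand. Capitals mark the core letters of the hypoxia response element, ACGTG or GCGTG, on either strand.
Car9: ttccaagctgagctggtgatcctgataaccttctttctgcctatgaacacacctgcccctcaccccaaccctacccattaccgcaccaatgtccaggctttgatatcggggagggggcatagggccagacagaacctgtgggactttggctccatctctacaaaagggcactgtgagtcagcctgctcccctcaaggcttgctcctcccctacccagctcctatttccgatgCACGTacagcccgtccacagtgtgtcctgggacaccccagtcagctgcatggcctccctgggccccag
Bnip3: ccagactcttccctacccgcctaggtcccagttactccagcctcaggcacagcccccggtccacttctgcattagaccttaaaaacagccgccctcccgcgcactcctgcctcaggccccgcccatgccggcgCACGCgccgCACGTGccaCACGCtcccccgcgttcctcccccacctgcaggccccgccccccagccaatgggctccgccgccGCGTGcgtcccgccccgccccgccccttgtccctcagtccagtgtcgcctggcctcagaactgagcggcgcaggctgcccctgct
Car9 held 1 match and Bnip3 held 5, with overlapping matches on the 2 strands counted separately. Of 14 list genes with a promoter in the RefSeq table, 13 held the core in at least 1 promoter (92.9%), and over their single promoters the count was 17 of 21 (81%). The same letters occurred in 14380 of 32851 promoters (43.8%). A match describes the letters and is no evidence of binding.

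**Figure D3:**
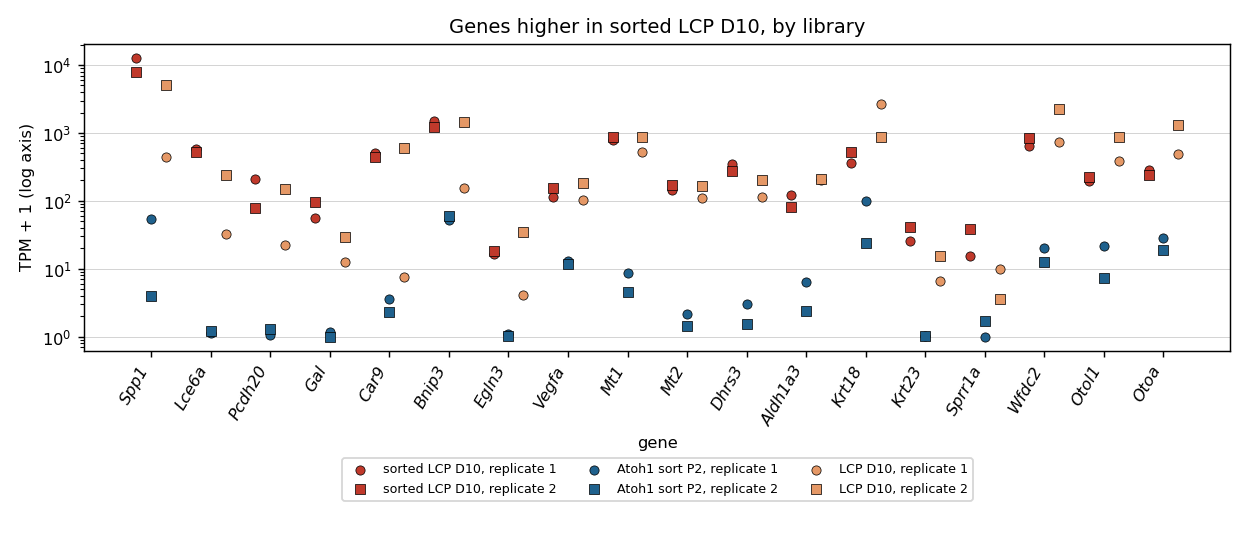
TPM + 1 on a log axis for 18 genes higher in culture, in sorted LCP D10 and the Atoh1 sort with unsorted LCP D10 beside them; circles are replicate 1 and squares replicate 2. Car9 sits at 509 and 448 TPM in sorted LCP D10, against 2.61 and 1.28 TPM in the Atoh1 sort, and its unsorted replicates lie far apart at 6.59 and 605 TPM.

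Keratins and genes associated with epithelial injury were partly higher. Krt23, a simple-epithelial keratin, had 24.7 and 40.0 TPM in sorted LCP D10, against 0.00802 and 0.0133 TPM in the Atoh1 sort (5.00, SE 1.02, adjusted p = 0.00469). Sprr1a, a cornified envelope precursor, had 14.7 and 37.9 TPM in sorted LCP D10, against 0 and 0.726 TPM in the Atoh1 sort (4.23, SE 0.66, adjusted p = 0.000793). Krt8, a keratin of simple epithelia, had 271 and 393 TPM in sorted LCP D10, against 134 and 35.2 TPM in the Atoh1 sort (2.23, SE 0.78, adjusted p = 0.0651). Krt8 passed with the block (adjusted p = 0.00557) and with equal library medians (adjusted p = 0.0325). Members of the list also fell: Lgals1, galectin-1, had 0.377 and 2.17 TPM in sorted LCP D10, against 62.2 and 23.7 TPM in the Atoh1 sort (-4.24, SE 0.96, adjusted p = 0.00887). The Lgals1 call was lost without sorted LCP D10 replicate 1 or Atoh1 replicate 1. Of the 20 members, 5 were higher, with Spp1 among them, and 2 lower (median 0.36), and 3 to 5 were higher with 1 library left out.

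Wfdc2, Otol1 and Otoa, from the lists of other cochlear epithelium and of apical matrix, were higher in culture. Wfdc2, a secreted protease-inhibitor-like protein, had 634 and 838 TPM in sorted LCP D10, against 19.2 and 11.4 TPM in the Atoh1 sort (5.53, SE 0.54, adjusted p = 2.39e-05). Otol1, otolin, a collagen-like protein of otoconia, had 193 and 228 TPM in sorted LCP D10, against 20.7 and 6.26 TPM in the Atoh1 sort (4.07, SE 0.59, adjusted p = 0.000475). Otoa, otoancorin, which anchors acellular gels to the epithelium, had 280.0 and 243 TPM in sorted LCP D10, against 27.2 and 18.1 TPM in the Atoh1 sort (3.50, SE 0.63, adjusted p = 0.0022). All 3 genes were also abundant in unsorted LCP D10, where Wfdc2 had 738 and 2259 TPM, Otol1 386 and 881 TPM and Otoa 492 and 1292 TPM. Whether other organoid cells passing the sort carry part of these levels was not tested. Oc90, otoconin, had 0.488 and 0.989 TPM in sorted LCP D10, against 112 and 19.1 TPM in the Atoh1 sort (-4.79, SE 1.22, adjusted p = 0.0158). The Oc90 call was kept only without Atoh1 replicate 2, and the Sox2 sort had 289 and 1762 TPM. Of 11 tested genes of other cochlear epithelium and stria, 3, Spp1, Wfdc2 and Kcnq1, were higher and 4 lower (median -0.64), and 2 were higher with any 1 library left out. The call for Kcnq1, a potassium channel gene, was the one lost whichever library was left out.

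Most tested cell cycle genes and all tested stress genes did not pass. Over all genes, 5.5% were higher and 12.4% lower, the shares to set beside the counts here. Mcm2, of the replicative helicase, had 4.46 and 2.59 TPM in sorted LCP D10, against 42.8 and 44.0 TPM in the Atoh1 sort (-3.33, SE 0.52, adjusted p = 0.000858). Cdkn1a, the cyclin kinase inhibitor p21, had 160.5 and 195 TPM in sorted LCP D10, against 57.0 and 27.5 TPM in the Atoh1 sort (2.13, SE 0.61, adjusted p = 0.0274). The Cdkn1a call was kept only without Atoh1 replicate 1. Of 22 tested cell cycle genes, 1 was higher and 4 were lower (median -0.77), with 1 or 2 lower when 1 library was left out and 1 with equal library medians. Of 16 immediate early and dissociation stress genes, 0 passed in either direction by limma (median 0.30). At an unadjusted p under 0.05, 2 of the 16 were higher and 0 lower, and 2 were higher with the block. Fos, an immediate early factor, had 251 and 442 TPM in sorted LCP D10, against 675 and 303 TPM in the Atoh1 sort, and the groups overlapped. Of 12 tested Wnt targets, 0 passed by limma (median -0.93), and at that unadjusted level 0 were higher and 2 lower. Lgr5 had 3.67 and 5.11 TPM in sorted LCP D10, against 32.5 and 12.5 TPM in the Atoh1 sort (-1.99, SE 1.18, adjusted p = 0.269). Of 15 sterol synthesis genes, 0 were higher and 1, the reductase gene Dhcr7, was lower (median -0.66). The Dhcr7 call (adjusted p = 0.026) was kept without Atoh1 replicate 1 but lost without any other library and with equal library medians, and 2 members were lower with the block. Of 10 apoptosis and p53 genes, 1, Cdkn1a, was higher and 0 were lower (median -0.21, or 0.10 with equal library medians).

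Of 14 growth factor response genes, 0 were higher and 4, the bone morphogenetic protein targets Id1, Id2 and Id3 together with Igfbp3, were lower (median -0.13, or 0.18 with equal library medians). Id3, an inhibitor of proneural factors, had 2.99 and 12.6 TPM in sorted LCP D10, against 544 and 217 TPM in the Atoh1 sort (-5.55, SE 1.03, adjusted p = 0.0026). Id1, of the same family, had 3.15 and 4.17 TPM in sorted LCP D10, against 166 and 75.5 TPM in the Atoh1 sort (-4.61, SE 0.75, adjusted p = 0.00108). Igfbp3, an insulin-like growth factor binding protein, had 3.15 and 3.05 TPM in sorted LCP D10, against 188 and 109 TPM in the Atoh1 sort (-5.14, SE 0.71, adjusted p = 0.000328). The call for Id2, the third member of the family, was lost without sorted LCP D10 replicate 1 or Atoh1 replicate 1. Id1, Id3 and Igfbp3 averaged more in the Lgr5 sort than in the Atoh1 sort.

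Of the Notch genes and the supporting cell markers, a part was lower in the culture-made cells and the rest did not pass, apart from S100a1. Hes5, the Notch target that marks supporting cells, had 0.219 and 0.255 TPM in sorted LCP D10, against 314 and 79.1 TPM in the Atoh1 sort (-7.00, SE 1.26, adjusted p = 0.0022). Fabp7, a fatty acid binding protein of supporting cells, had 0.168 and 0.245 TPM in sorted LCP D10, against 224 and 80.7 TPM in the Atoh1 sort (-6.81, SE 0.45, adjusted p = 1.84e-06). Fgfr3, a receptor of pillar and Deiters' cell precursors, had 0.359 and 0.474 TPM in sorted LCP D10, against 68.1 and 58.6 TPM in the Atoh1 sort (-5.50, SE 0.80, adjusted p = 0.000508). These 3 markers were under 1 TPM in both culture-made libraries, so they could only come out lower. Each averaged more in the Lgr5 sort than in the Atoh1 sort. Hes5 had 1901 and 225 TPM in the Lgr5 sort, Fabp7 had 315 and 246 TPM there and Fgfr3 had 216 and 94.7 TPM.

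Jag1, the Notch ligand of supporting cells, had 0.969 and 0.712 TPM in sorted LCP D10, against 39.4 and 30.8 TPM in the Atoh1 sort (-4.29, SE 1.16, adjusted p = 0.0218). The call for Jag1 was lost whichever library was left out. Nrarp, a feedback target of Notch, had 0.251 and 0.901 TPM in sorted LCP D10, against 20.5 and 12.1 TPM in the Atoh1 sort (-3.44, SE 0.73, adjusted p = 0.00589), a call lost without Atoh1 replicate 1. Jag1 and Nrarp were under 1 TPM in both culture-made libraries, so like Hes5 they could only come out lower. The Lgr5 sort had 132 and 31.8 TPM of Jag1 and 63.2 and 21.9 TPM of Nrarp. Dll1, a ligand made by nascent hair cells, had 43.0 and 34.6 TPM in sorted LCP D10, against 26.5 and 37.4 TPM in the Atoh1 sort, and did not pass (adjusted p = 0.784). Sox2, which supporting cells and young hair cells share, had 70.2 and 52.7 TPM in sorted LCP D10, against 59.0 and 26.5 TPM in the Atoh1 sort, and the groups overlapped (0.61, SE 0.66, adjusted p = 0.568). Of 14 tested Notch genes, 0 were higher and 7 lower (median -1.70), and 2 or 3 were lower with 1 library left out. Of 21 tested supporting cell and prosensory markers, 1, S100a1, was higher and 7 were lower (median -1.05), and 4 or 5 were lower with 1 library left out. With equal library medians, 5 of the 14 Notch genes and 7 of the 21 supporting cell and prosensory markers were lower. The summed level of the 22 listed supporting cell and prosensory markers was 6624 and 7743 TPM in sorted LCP D10, against 2810 and 1569 TPM in the Atoh1 sort. S100a1 made up most of it in sorted LCP D10.

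The tectorial membrane gene Tectb, beta-tectorin, had 0.871 and 7.08 TPM in sorted LCP D10, against 479 and 295 TPM in the Atoh1 sort (-6.60, SE 1.15, adjusted p = 0.0017). Its level in the Lgr5 sort, 4399 and 1562 TPM, exceeded both Atoh1 libraries. Col2a1, a collagen of cartilage and of the tectorial membrane, named after its values were seen, had 13.1 and 16.6 TPM in sorted LCP D10, against 279 and 229.7 TPM in the Atoh1 sort (-4.01, SE 1.07, adjusted p = 0.0197). The Col2a1 call was lost whichever library was left out. Of 12 tested tectorial and apical matrix genes, 2, Otol1 and Otoa, were higher and 3 lower (median -0.90), and 2 were lower with any 1 library left out.

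**Figure D4:**
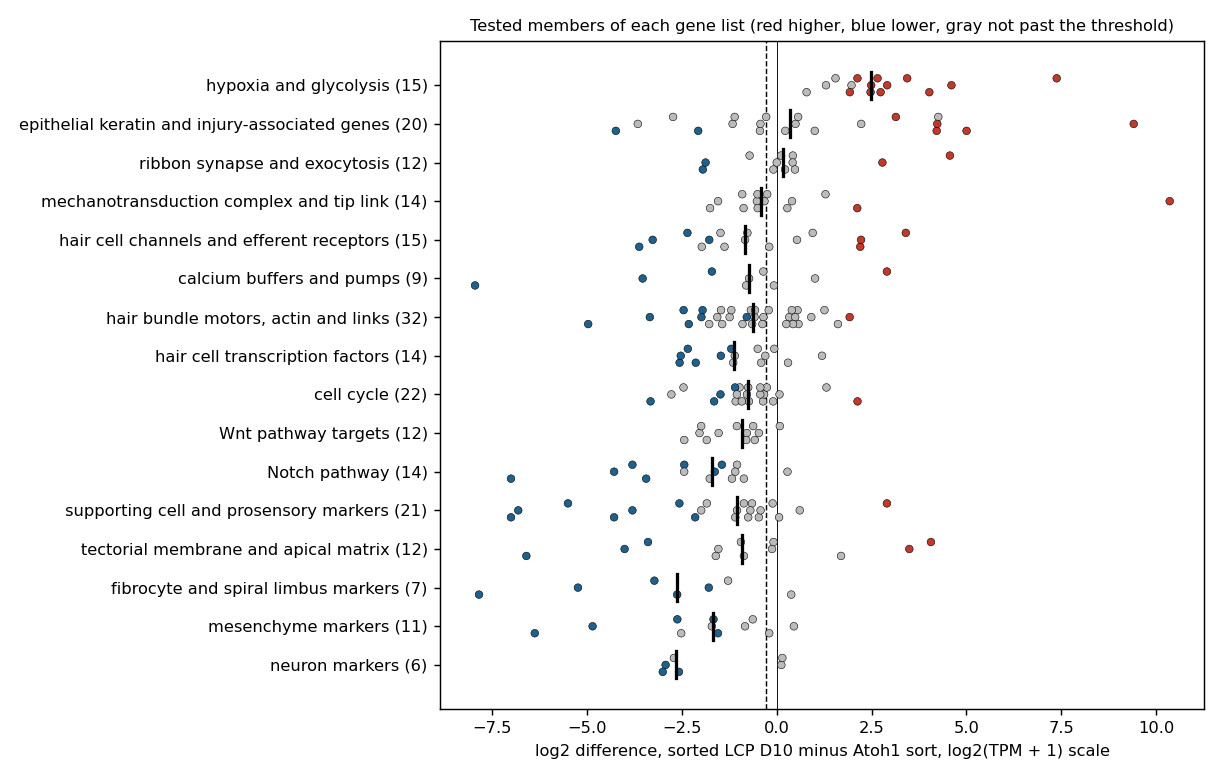
Log2 differences (sorted LCP D10 minus Atoh1 sort) of the tested members of 16 gene lists, one point per gene. Black bars mark list medians and the dashed line the median of all genes at -0.28; the hypoxia list, with a median of 2.49, lies above 0 throughout, and the fibrocyte, mesenchyme, neuron and Notch lists lie mostly below.

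The native sort also held transcripts used as markers of cells other than hair cells and supporting cells. Whether other cells or the sorted cells themselves carried them was not tested. Otor, otoraplin, a secreted protein of spiral limbus and fibrocytes, lies at chr2:143078473-143081713 on the plus strand. Otor had 0.095 and 0.116 TPM in sorted LCP D10, against 432 and 149 TPM in the Atoh1 sort (-7.85, SE 1.07, adjusted p = 0.000296). It was close to 0 in both culture-made libraries, and Atoh1 replicate 1 exceeded replicate 2. Otor was lower in the other native sorts than in the Atoh1 sort, at 92.7 and 28.3 TPM in the Lgr5 sort and 55.3 and 85.1 TPM in the Sox2 sort. Car3, a carbonic anhydrase of fibrocytes, had 0.291 and 0.869 TPM in sorted LCP D10, against 88.6 and 37.5 TPM in the Atoh1 sort (-5.24, SE 0.43, adjusted p = 5.47e-06). Mfap4, a microfibril protein, had 0.526 and 0.602 TPM in sorted LCP D10, against 241 and 62.5 TPM in the Atoh1 sort (-6.31, SE 0.50, adjusted p = 4.25e-06). Across the Lgr5 and Sox2 sorts Car3 had 3.45 to 10.2 TPM and Mfap4 37.8 to 51.2 TPM, less than in either Atoh1 library. Otor, Car3 and Mfap4 entered the test only through the native libraries and could only come out lower. Of 7 tested fibrocyte and spiral limbus markers, 0 were higher and 5 lower (median -2.62), with 3 to 5 lower when 1 library was left out. The summed level of that list was 1183 and 1107 TPM in sorted LCP D10, against 1221 and 1356 TPM in the Atoh1 sort, and Smpx, which hair cells also express, made up most of it. Smpx alone had 1181 and 1105 TPM in sorted LCP D10, against 672 and 1141 TPM in the Atoh1 sort.

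Mesenchymal collagen genes also had less in sorted LCP D10 than in the Atoh1 sort. Col3a1 had 0.0269 and 0 TPM in sorted LCP D10, against 90.2 and 76.9 TPM in the Atoh1 sort (-6.38, SE 0.97, adjusted p = 0.000705). Col1a2 had 0.025 and 0.0531 TPM in sorted LCP D10, against 40.2 and 20.9 TPM in the Atoh1 sort (-4.85, SE 0.55, adjusted p = 8.42e-05). Pdgfra, a mesenchymal receptor, had 1.62 and 1.49 TPM in sorted LCP D10, against 8.87 and 23.9 TPM in the Atoh1 sort (-2.62, SE 0.42, adjusted p = 0.000898). The 2 collagen genes were close to 0 in both culture-made libraries. They entered the test only through the native libraries and could only come out lower. Unlike Otor, Car3 and Mfap4, Col3a1 had more in the Sox2 sort, at 104.9 and 108.4 TPM, than in either Atoh1 library. In the Lgr5 sort Col3a1 had 42.23 and 9.489 TPM. Col1a2 had 11.95 and 34.34 TPM in the Lgr5 sort and 23.25 and 29.66 TPM in the Sox2 sort. Of 11 tested mesenchyme markers, 0 were higher and 5 lower (median -1.67), with 3 or 4 lower when 1 library was left out and 3 with equal library medians. Over all 15 listed markers, summed levels were 70.7 and 54.0 TPM in sorted LCP D10, against 294 and 183 TPM in the Atoh1 sort. The Lgr5 sort had 446 and 724 TPM and the Sox2 sort 528 and 401 TPM of the same markers.

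The neuron markers that passed were lower in culture, and each had more in Atoh1 replicate 1 than in replicate 2. Elavl4, a neuronal RNA-binding protein, had 0.0416 and 0 TPM in sorted LCP D10, against 16.8 and 2.76 TPM in the Atoh1 sort (-3.00, SE 0.54, adjusted p = 0.00225). Stmn2, a microtubule regulator of neurons, had 0.027 and 0.0132 TPM in sorted LCP D10, against 20.7 and 1.79 TPM in the Atoh1 sort (-2.93, SE 0.80, adjusted p = 0.0225). The Stmn2 call was kept only without Atoh1 replicate 2. Gap43, the growth cone protein, was listed at 0 in both sorted LCP D10 libraries, against 10.5 and 2.11 TPM in the Atoh1 sort. Elavl4, Stmn2 and Gap43 entered the test only through the native libraries and could only come out lower. Of 6 tested neuron markers, 0 were higher and 3 lower (median -2.64), with 2 or 3 lower when 1 library was left out. Summed over 12 listed markers the levels were 298 and 191 TPM in sorted LCP D10, against 387 and 416 TPM in the Atoh1 sort. Most of this came from Nefl, Nefm and Sncg, and 6 of the 12 markers were under 0.05 TPM in both culture-made libraries.

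Glial markers had lower summed levels in both groups than in the Sox2 sort, where they came to 795 and 1240.0 TPM. Pmp22, a myelin protein, had 0.00849 and 0.117 TPM in sorted LCP D10, against 9.89 and 7.08 TPM in the Atoh1 sort (-3.14, SE 0.55, adjusted p = 0.00175). Mbp, myelin basic protein, had 1.31 and 2.11 TPM in sorted LCP D10, against 9.87 and 11.99 TPM in the Atoh1 sort (-2.15, SE 0.62, adjusted p = 0.0286), a call lost whichever library was left out and with equal library medians (adjusted p = 0.0578). Of 7 tested glial markers, 1 was higher and 3 lower (median -0.92), with 1 or 2 lower when 1 library was left out and 1 with equal library medians. The higher one was Mal, a membrane raft protein of myelin and epithelia, with 8.99 and 13.3 TPM in sorted LCP D10, against 1.3 and 1.63 TPM in the Atoh1 sort (2.28, SE 0.49, adjusted p = 0.00607), and its call was lost without sorted LCP D10 replicate 2. Their sum over 10 markers was 153 and 170.0 TPM in sorted LCP D10, against 356 and 251 TPM in the Atoh1 sort.

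Globin transcripts were found in the native sort. Hbb-bs, an adult beta-globin, was listed at 0 in both sorted LCP D10 libraries, against 89.0 and 106 TPM in the Atoh1 sort. Hba-a1, an alpha-globin with a near-identical copy that shares its reads, was listed at 0 in both sorted LCP D10 libraries, against 57.1 and 94.3 TPM in the Atoh1 sort. All 4 tested erythroid markers were lower (2 to 4 with 1 library left out), and the Hba-a1 call was kept only without Atoh1 replicate 1. Summed over 8 markers they made up 0.718 and 0.352 TPM in sorted LCP D10, against 192 and 281 TPM in the Atoh1 sort. Each marker was thus under 1 TPM in both culture-made libraries, so a tested one could only come out lower. The other native sorts varied by library, with 105 and 1.36 TPM in the Lgr5 sort and 1.72 and 103 TPM in the Sox2 sort.

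Endothelial markers split. Egfl7, secreted by endothelium, had 2.74 and 5.1 TPM in sorted LCP D10, against 95.8 and 130.3 TPM in the Atoh1 sort (-4.56, SE 0.48, adjusted p = 5.02e-05). Emcn, endomucin, had 0.0581 and 0.0615 TPM in sorted LCP D10, against 12.6 and 7.72 TPM in the Atoh1 sort (-3.36, SE 0.66, adjusted p = 0.00378). Emcn entered the test only through the native libraries and could only come out lower. The defining endothelial genes Cdh5 and Kdr were at or under 0.124 TPM in all 4 libraries, so 2 of the 10 listed markers were tested and both were lower. The immune marker C1qb, of the complement, had 7.64 and 5.17 TPM in sorted LCP D10, against 25.6 and 23.6 TPM in the Atoh1 sort (-1.81, SE 0.66, adjusted p = 0.0757). It was the only one of 13 immune markers tested, and the leukocyte gene Ptprc was under 0.1 TPM in all 4 libraries. The single tested melanocyte marker, Pmel, was lower with levels of 0.487 and 0.88 TPM in sorted LCP D10, against 2.15 and 1.97 TPM in the Atoh1 sort, a call lost whichever library was left out and with equal library medians.

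**Figure D5:**
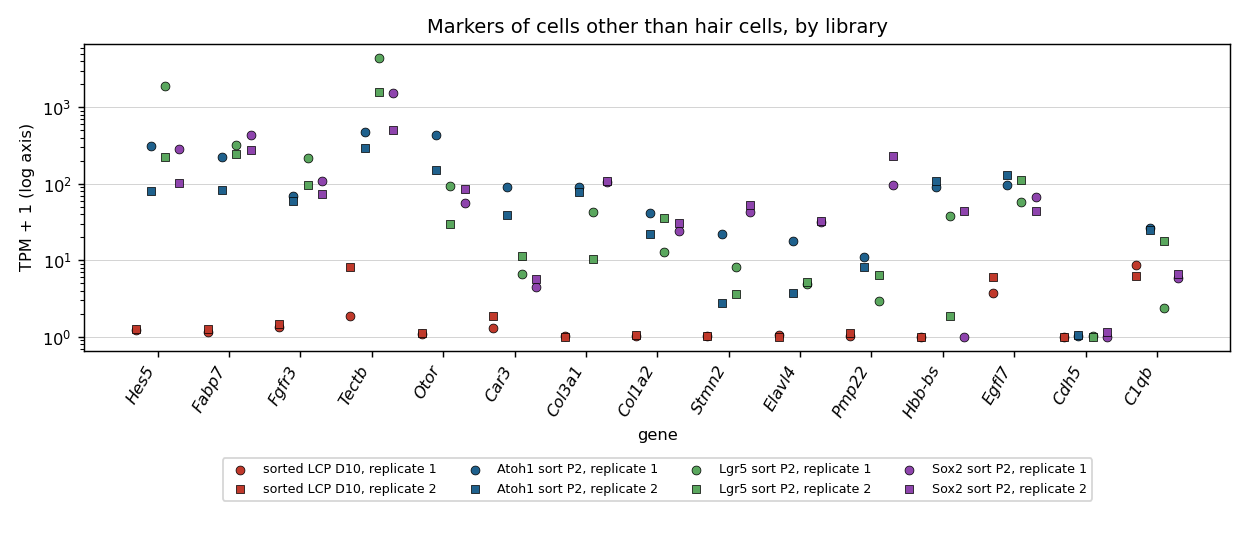
TPM + 1 on a log axis for 15 genes of supporting cells, tectorial membrane, fibrocytes, mesenchyme, neurons, glia, blood, vessels and immune cells in sorted LCP D10 and the Atoh1, Lgr5 and Sox2 sorts; circles are replicate 1 and squares replicate 2. Otor and Car3 are highest in the Atoh1 sort, whereas Hes5, Fabp7, Fgfr3 and Tectb average higher in the Lgr5 or Sox2 sort.

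Genes at 10 TPM or more on average in the Atoh1 sort and under 1 TPM in both sorted LCP D10 libraries numbered 79 of 21620 (0.365%), again as a description. The 6 most abundant were Otor, Hes5, Fabp7, Mfap4, Hbb-bs and St8sia3. All 4 Lgr5 and Sox2 libraries held at least 1 TPM of 64 of the 79 genes, and 31 of the 79 averaged higher in the Lgr5 or the Sox2 sort than in the Atoh1 sort. In unsorted LCP D10, 48 of the 79 were under 1 TPM in both libraries. A few rested on 1 native library. Sst, somatostatin, named after its values were seen, had 0.0753 and 0 TPM in sorted LCP D10, against 131 and 0.0502 TPM in the Atoh1 sort. Ghrl, ghrelin, likewise had 0.814 and 0.268 TPM in sorted LCP D10, against 92.3 and 0 TPM in the Atoh1 sort.

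How much of each native-side difference came from other cells in the Atoh1 sort was not tested. The 2 native replicates held these transcripts unequally. Otor, Mfap4, Stmn2 and Hes5 had more in Atoh1 replicate 1, and so did the summed mesenchyme markers. Pdgfra, Egfl7 and the globin genes had more in Atoh1 replicate 2, as did the hair cell genes Calb1, Ocm, Lmod3, Kcnj13 and Slc26a5.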

How the data were processed

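RNA was measured in 18 libraries of the series, of which 4 form the comparison. Per the labels' protocols, SMARTer V4 cDNA from 2.5 ng of RNA was sheared, made into libraries with a kit that does not mark strand, and sequenced as single 75-base reads. The deposited values are TPM per gene, made by the authors. STAR, Salmon, FastQC, DESeq2 and mm10 are named in the submitters' processing notes, and their settings and gene annotation were not given in the sources used here. Since TPM keeps no depth, no interval or floor is given. Without strand, overlapping and antisense genes cannot be told apart, and near-identical copies such as the globins share reads.

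Of 47729 identifiers, 47224 were matched to GENCODE M21 names on mm10 and 505 were not; 21620 were protein-coding. The log2(TPM + 1) values of all 18 libraries in 9 groups were fitted in limma 3.58.1 (R 4.3.3) with moderated variances that follow mean expression. A gene was tested where 2 or more of the 4 libraries reached 1 TPM, and p-values were adjusted over them. Python 3.11.15 with pandas 2.3.3 and numpy 2.4.6 built the tables, and the fit was tested on simulated data. Promoters came from RefSeq (GRCm38.p6).

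The members and the 28 gene lists were chosen with earlier results of these data known. Named genes were the 12 furthest on each side whose libraries did not overlap and whose higher group averaged at least 10 TPM (ribosomal protein, mitochondrial and predicted genes left out), up to 4 called and 2 uncalled members per list, preset markers and the 6 most abundant genes of 1 group alone. Others were named after their values were seen, and a few withheld genes are not reported here.

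Same-numbered libraries of the 2 compared groups share a sequencing date in the labels, which gives the pairing; in the whole series 3 unsorted organoid libraries numbered 1 have another date. The replicate deviations of the 2 groups correlated at r = -0.195 over 12506 genes. Replicates correlated at 0.974 in sorted LCP D10 and 0.967 in the Atoh1 sort. The alternatives were other pseudocounts, filters, gene sets, scalings, moderation, the 4 libraries alone, a replicate block, a sequencing date term and leaving out each library.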

Additional observations from a re-analysis of the deposited data

How the results depend on the processing

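Of 101 named genes past the threshold, 0 turned direction in any alternative. The genes named as furthest on each side were chosen for libraries that do not overlap. Leaving out 1 library cannot turn the direction of such a gene. The same holds for a tested gene under 1 TPM in both libraries of one group. The count of 0 is therefore a description only. Of the 101 genes, 69 were past the threshold in all 4 fits without 1 library. In every other alternative that tested the gene, 85 were past it. With the replicate block 101 were past it, and with equal library medians 90. The main fit called 2234 genes, with 3960 at an unadjusted p under 0.05. With 1 library left out the totals were 905 to 1255, of which 306 to 373 were higher and 567 to 949 lower; 895 to 1209 of the 2234 calls were kept (40.1% to 54.1%). The 4 libraries alone gave 3506 genes (1156 higher, 2350 lower), and a sequencing date term, added after the data were seen, gave 3482 (2521 lower). Equal library medians gave 1039 higher and 912 lower, with 1594 of the 2234 calls kept. The replicate block called 3039 genes, all 2234 calls among them, and ended no call; pairing the numbers crosswise, also added later, gave 3085 (848 higher, 2237 lower). The other settings stayed within 1.5 times: 2074 and 2187 with pseudocounts of 0.1 and 5, 2441 with no filter, 1751 at 5 TPM, 2424 over all gene types, 2205 after rescaling and 2175 without the mean trend.

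Among named genes not past the threshold, equal library medians turned Bax to 0.0035, Fdps to 0.27 and Lhx3 to 0.25. Without 1 library, ranges that crossed 0 were -1.07 to 0.36 for Calb2, -0.75 to 0.017 for Cyp26b1, -0.24 to 1.14 for Dcn, -1.51 to 0.20 for Egr2, -0.40 to 0.33 for Fdps, -1.02 to 0.14 for Fos, -0.31 to 0.18 for Lhx3, -0.92 to 0.24 for Msmo1, -0.41 to 0.71 for Nefl, -0.34 to 0.57 for Nsf, -0.076 to 0.92 for Otof, -0.17 to 1.30 for S100a11 and -1.01 to 0.16 for Sparcl1. The cause was not tested. TPM without counts limits what low values such as those of Cib3 in the native sort can show.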

Other observations

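The genes in these paragraphs were chosen after their values were seen, so they stand for no pathway, and their adjusted p-values describe single genes. Genes of retinoid metabolism and response went both ways. Dhrs3, a retinaldehyde reductase that retinoic acid induces, had 354 and 279 TPM in sorted LCP D10, against 2.05 and 0.534 TPM in the Atoh1 sort (log2 difference 7.19, SE 0.50, limma adjusted p = 1.9e-06). Aldh1a3, a retinoic acid synthesizing enzyme, had 121 and 81.2 TPM in sorted LCP D10, against 5.4 and 1.35 TPM in the Atoh1 sort (4.69, SE 0.54, adjusted p = 9.31e-05). Rarb, a retinoic acid receptor and itself a retinoid target, had 52.1 and 33.7 TPM in sorted LCP D10, against 3.65 and 1.49 TPM in the Atoh1 sort (3.66, SE 0.49, adjusted p = 0.000262). These 3 genes did not overlap between the groups, as held for 67.9% of all genes. Unsorted LCP D10 had 63.7 and 33.2 TPM of Rarb. Rara, another receptor, went the other way, with 24.8 and 29.4 TPM in sorted LCP D10, against 40.0 and 88.9 TPM in the Atoh1 sort (adjusted p = 0.0306), and lost its call without either sorted LCP D10 library or without Atoh1 replicate 2, and with equal library medians (adjusted p = 0.111). Aldh1a2, a further retinoic acid synthesizing enzyme, was listed at 0 in both sorted LCP D10 libraries, against 3.16 and 1.56 TPM in the Atoh1 sort, and its call as lower (adjusted p = 0.0342) was lost whichever library was left out and with equal library medians. The binding protein gene Crabp2 had 0.572 and 1.08 TPM in sorted LCP D10, against 36.9 and 8.32 TPM in the Atoh1 sort (-3.38, SE 1.38, adjusted p = 0.11), and its relative Crabp1 missed the threshold too (-2.89, SE 0.98, adjusted p = 0.058), with 0.118 and 0 TPM in sorted LCP D10, against 25.3 and 1.33 TPM in the Atoh1 sort. Stra6, the retinol transporter gene, had 72.6 and 47.1 TPM in sorted LCP D10, against 33.3 and 55.1 TPM in the Atoh1 sort, and overlapped.

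H2-Ab1, a class II gene, had 36.8 and 36.9 TPM in sorted LCP D10, against 0.492 and 0.417 TPM in the Atoh1 sort (4.70, SE 0.62, adjusted p = 0.000228). H2-D1, a class I gene with near-identical relatives, had 138 and 87.2 TPM in sorted LCP D10, against 5.25 and 10.4 TPM in the Atoh1 sort (3.72, SE 0.50, adjusted p = 0.000266). B2m, the class I light chain, had 105 and 92.0 TPM in sorted LCP D10, against 18.9 and 7.16 TPM in the Atoh1 sort (2.96, SE 0.36, adjusted p = 0.000129). Tap1, the peptide transporter of the class I pathway, did not pass, with 2.91 and 3.09 TPM in sorted LCP D10, against 1.99 and 0.391 TPM in the Atoh1 sort (0.97, SE 0.55, adjusted p = 0.247). The leukocyte gene Ptprc had 0.0614 and 0.0457 TPM in sorted LCP D10, against 0.0109 and 0.0938 TPM in the Atoh1 sort. The metallothionein genes Mt1 and Mt2, whose products bind zinc and copper, were also high in culture: Mt1 had 776 and 862 TPM in sorted LCP D10, against 7.69 and 3.57 TPM in the Atoh1 sort (7.02, SE 0.62, adjusted p = 1.11e-05). The zinc exporter gene Slc30a1 had 2.94 and 3.89 TPM in sorted LCP D10, against 2.77 and 3.1 TPM in the Atoh1 sort (0.16, SE 0.35, adjusted p = 0.798). The cause of the metallothionein levels was not tested.

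Emx2, a homeobox gene that sets hair bundle orientation, had 0.24 and 0.919 TPM in sorted LCP D10, against 17.3 and 25.3 TPM in the Atoh1 sort (-3.83, SE 0.33, adjusted p = 8.41e-06). Bcl11b, a zinc-finger factor, had 0.403 and 0.0288 TPM in sorted LCP D10, against 9.55 and 17.0 TPM in the Atoh1 sort (-3.52, SE 0.36, adjusted p = 4.27e-05). Fgf20, a growth factor of the prosensory domain, was listed at 0 in both sorted LCP D10 libraries, against 18.9 and 7.35 TPM in the Atoh1 sort. Lmx1a, another regulator of inner ear patterning, had 3.27 and 3.23 TPM in sorted LCP D10, against 0.759 and 0.369 TPM in the Atoh1 sort, and did not pass (1.45, SE 0.94, adjusted p = 0.317). Emx2 and Bcl11b were under 1 TPM in both unsorted LCP D10 libraries as well, and Emx2 had 16.8 to 33.7 TPM across the Lgr5 and Sox2 sorts.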
